A study of Mus musculus with 6 samples.

Results

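The heat shock proteins and their DnaJ cochaperones were examined in endothelial cells (EC) of the mouse lung. The genes were chosen by symbol alone, namely every symbol that begins with Hsp and a digit or one of the letters a, b, d, e and h, or with Dnaj, one of the letters a, b and c and a digit, with the heparan sulfate proteoglycan Hspg2 left out. This gave 65 of the 12623 genes of the deposited table, 26 Hsp and 39 Dnaj genes, the latter 4 of the Dnaja, 11 of the Dnajb and 24 of the Dnajc class. Among the Dnajc genes is the pseudogene Dnajc19-ps. The samples were 3 libraries from infant and 3 from young adult C57BL/6N mice, with no genetic change and no treatment named in the labels. Infant mice were at postnatal day 8 to 10 and young adult mice were 8 to 12 weeks old. EC were released from the lung with collagenase at warm temperature and sorted as living cells with the endothelial surface proteins CD31 and CD34 and without PTPRC (leukocytes), LYVE1 and PDPN (lymphatic vessels) and LY76 (erythroid cells). The replicates of a group are independent biological replicates in the submitters' words, and the sources do not say how many mice went into each.

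Heat shock proteins are molecular chaperones that bind unfolded stretches of other proteins and help them to fold, to cross membranes or to reach the proteasome. HSP70 proteins do this in cycles of ATP binding and hydrolysis, J-domain proteins (the DnaJ families) bring clients to HSP70 and start hydrolysis, and nucleotide exchange factors reset the cycle. HSP90 proteins finish the folding of kinases and receptors, and small heat shock proteins hold clients without ATP. Some members are present at all times, whereas others are induced when the heat shock factor HSF1 binds heat shock elements in their promoters after heat, shear or other protein stress. A separate group lies in the endoplasmic reticulum (ER) and responds to unfolded proteins there.

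Values are RPKM, reads per kilobase of transcript and scaled to the mapped reads of the library, so levels can be compared between genes per length, but the number of reads behind a library is unknown. All 65 genes reached an RPKM of 1 in at least 1 library and were tested, and 61 to 64 of them reached it in any single library. Differences are young adult minus infant on the log2(RPKM + 1) scale from limma, with Benjamini-Hochberg adjustment over the 12458 genes tested, and genes with an adjusted p under 0.05 and a difference of over 1.75-fold (0.81 on the log2 scale) are named as called. The scale understates changes of low genes, so ratios of mean RPKM are given as well. Lower levels in sorted bulk cells can come from fewer cells of a type or from less RNA per cell, and these cannot be told apart.

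The libraries carried the labelled cell type, with all 16 endothelial markers above 0 in every library (summed level 3747 to 5466 RPKM in infant and 5797 to 6350 RPKM in young adult libraries). Markers of other cells were present too. The summed level of 11 alveolar epithelial markers was 4064 to 5133 RPKM in infant and 1594 to 5298 RPKM in young adult libraries. Most of it was the surfactant gene Sftpc (3734 to 4683 and 1451 to 4883 RPKM). For 8 markers of ciliated and secretory epithelium the sum was 2845 to 7024 against 366 to 3456 RPKM. The sum of 14 leukocyte markers was 329 to 526 against 144 to 559 RPKM. The summed level of 13 fibroblast markers was 371 to 1530 RPKM in infant and 13.4 to 27.7 RPKM in young adult libraries, that of 14 markers of mural cells (pericytes and smooth muscle) was 195 to 378 against 97.2 to 109 RPKM, and globin genes took 3.41 to 23.5% of the RPKM total in infant and 0.307 to 0.487% in young adult libraries. Mcam, the 1 mural marker with a positive difference (0.31, not called), made up 72.8 to 91.2 RPKM of the young adult mural sum. Infant replicate 2 held the least globin, fibroblast and mural signal of the infant group. The Y-linked gene Ddx3y stood at 16.5 to 21.9 RPKM in infant libraries and was listed at 0 in all young adult libraries, while Xist, the RNA of the inactive X chromosome, was at 7.6 to 8.7 and 12.5 to 15.6 RPKM. The methods name female mice, yet only the infant libraries held RNA of male cells, and in every comparison given here age and sex cannot be told apart. The 15 genes of the dissociation response, early response genes that are induced when tissue is taken apart by enzymes, summed to 1258 to 1729 RPKM in infant and 688 to 973 RPKM in young adult libraries, and 7 of them were called lower in young adult EC. Their part in the results was not tested.

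The chaperone genes ranged from the very abundant to the barely detected. Hspa8, the constitutive cytosolic HSP70, was highest, with 525.9, 625.7 and 623.4 RPKM in the infants (the infant libraries, always in the order of replicates 1 to 3) and 595.7, 544.5 and 627.2 RPKM in the young adults (the young adult libraries). Next came Hsp90ab1, the constitutive cytosolic HSP90, with 311, 283 and 368 RPKM in the infants and 321.9, 370.3 and 412.3 RPKM in the young adults. Hspa5 (BiP, the HSP70 of the ER) followed with 227, 181.6 and 220.1 against 155.6, 186.4 and 182.5 RPKM, and Hsp90b1 (GRP94, the HSP90 of the ER) with 166.5, 135 and 171.1 against 135.9, 162.4 and 165.4 RPKM. In all of these genes the groups overlapped. These 4 genes carried 57.7 to 60.6% of the summed RPKM of the 65 genes in every library. The sum itself came to 2175 ± 93.7 RPKM for infants and 2171 ± 124 RPKM for young adults (SD, n = 3 each), a gap far smaller than the spread within each group. These sums were not corrected for globin, which took 3.41 to 23.5% of the RPKM total in infant and 0.307 to 0.487% in young adult libraries. In all, 34 genes had a mean of at least 10 RPKM and 31 a lower one, down to 0.733 RPKM for Dnajb7.

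**Figure D1:**
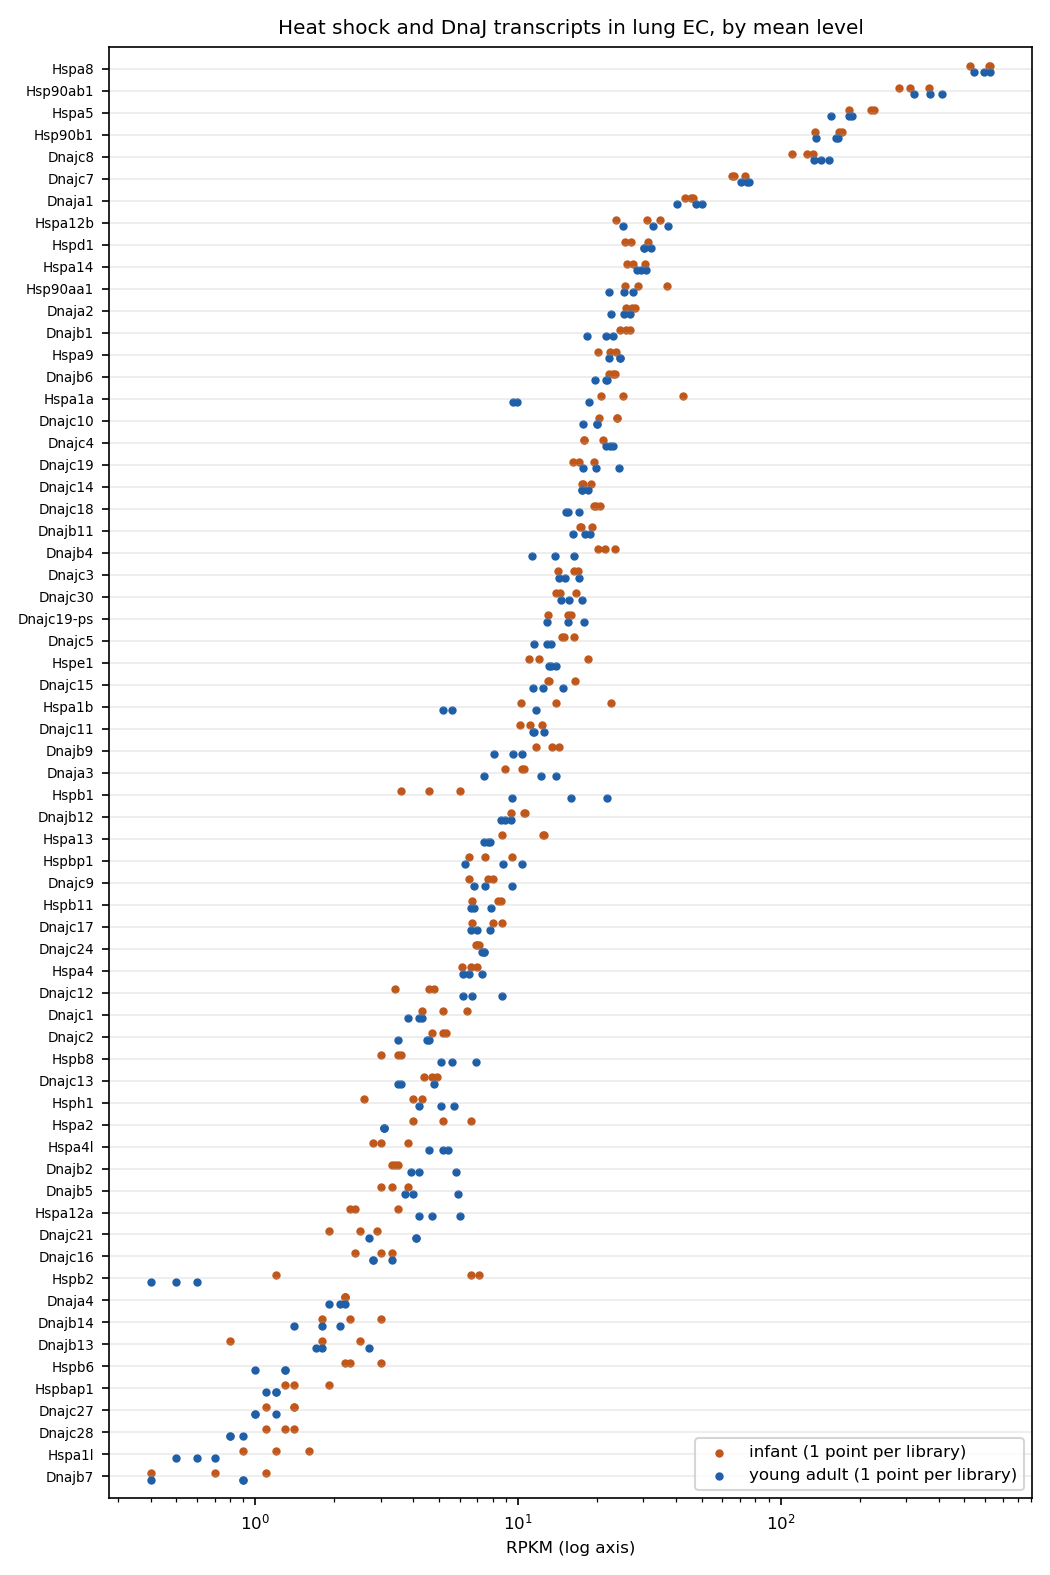
RPKM of each of the 65 genes in each of the 6 libraries, on a log axis, with genes ordered by their mean level and 1 point per library (infant orange, young adult blue). Points of both ages overlap for most genes from Hspa8 at the top to Dnajb7 at the bottom, and Hspa1a, Hspa1b, Hspb1 and Hspb2 are spread most widely for their level.

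Few of the chaperone genes passed the test between the ages. Called were 3 of 65 (4.62%), 1 higher (Hspb1) and 2 lower (Hspa1a and Hspb2) in young adult EC. Of all tested genes 11.4% were called, 3.33% higher and 8.1% lower. An adjusted p under 0.05 without regard to fold was reached by 13 of the 65 genes (20%), 5 higher and 8 lower, beside 25.5% of all genes, 9.26% higher and 16.2% lower. The groups did not overlap in 25 genes (38.5%), beside 43.4% of all genes. The median difference of the 65 genes was -0.02 and that of all genes -0.07. The median size of the difference regardless of sign was 0.21 and 0.24, respectively. Within 0.5 of 0 lay 54 of the 65 genes, beside 9459 of all 12458. For 51 genes the 95% interval of the difference lay wholly inside the fold threshold on both sides. Without infant replicate 2, 5 genes were called, 2 higher (Hspb1, Hspa12a) and 3 lower (Hspa1a, Hspa1b, Hspb2), and 14 genes had an adjusted p under 0.05. In the other fits that left out 1 library fewer than the 13 genes had an adjusted p under 0.05, with 3 and 4 genes when infant replicate 1 or 3 was dropped and 5, 3 and 5 genes when young adult replicate 1, 2 or 3 was. Over these 6 fits the adjusted p stayed under 0.05 in 6 for Hspb8, in 5 for Hspb1 and Hspb6, in 2 for Hspa1a, Hspa12a, Hspa4l, Dnajb4 and Dnajc12, in 1 for Hspb2, Hspa2, Hspa13 and Dnajb9 and in 0 for Dnajc18. Without infant replicate 1, infant replicate 3, young adult replicate 1 or young adult replicate 3, Hspb1 was the single gene called. Without young adult replicate 2 the called genes were Hspa1a and Hspa1b.

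**Figure D2:**
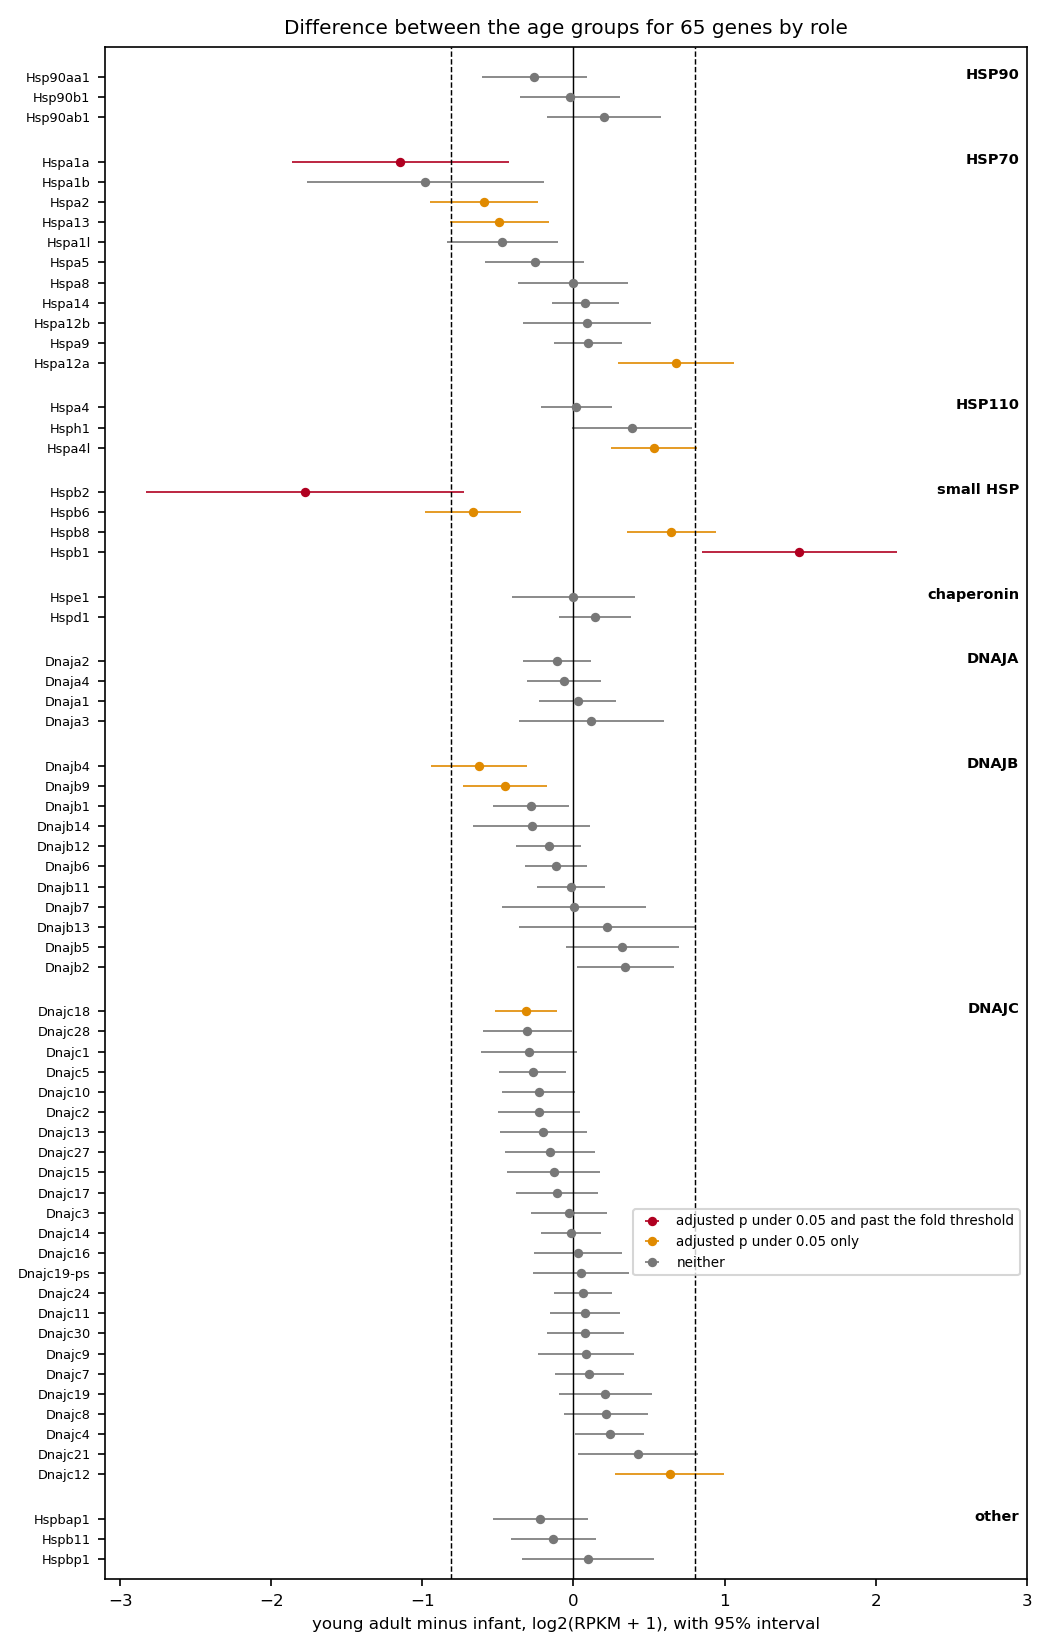
Difference between young adult and infant EC on the log2(RPKM + 1) scale for the 65 genes, with 95% intervals from limma, grouped by role and ordered by size. Dashed lines mark the fold threshold. The 3 called genes, Hspa1a and Hspb2 to the left and Hspb1 to the right, are red, 10 further genes with an adjusted p under 0.05 are orange, and the other 52 are grey.

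Among the HSP70 genes 1 was called, Hspa1a, 1 of a pair of stress-inducible genes. Hspa1a and Hspa1b encode the classical inducible HSP70 and lie on chromosome 17, at 34969359 to 34972156 and 34956429 to 34959238 (build GRCm38.p6, identical in coordinates to mm10), 10120 bases apart. Their bases before the start site, shown to let the heat shock element and the likeness of both copies be seen, differ at 3 of 250 positions (98.8% identical). Capitals mark a match to the core of the heat shock element, searched as GAANNTTC or TTCNNGAA. Each pattern reads the same on both strands, and matches may overlap. Both sequences are RefSeq's, from the minus strand, written 5′ to 3′, and end at the base before the start site.
Hspa1a, chr17:34972157-34972406: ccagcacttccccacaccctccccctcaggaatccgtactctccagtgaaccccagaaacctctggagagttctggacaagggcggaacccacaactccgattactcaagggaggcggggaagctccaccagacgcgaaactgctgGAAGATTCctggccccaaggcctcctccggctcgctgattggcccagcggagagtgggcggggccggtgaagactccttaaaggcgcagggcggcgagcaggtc
Hspa1b, chr17:34959239-34959488: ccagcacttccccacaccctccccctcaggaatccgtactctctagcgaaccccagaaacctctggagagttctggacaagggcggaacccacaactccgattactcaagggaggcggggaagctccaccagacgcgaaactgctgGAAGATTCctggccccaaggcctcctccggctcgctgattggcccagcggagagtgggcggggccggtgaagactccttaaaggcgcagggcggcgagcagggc

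Hspa1a had 42.4, 20.7 and 25.1 RPKM in the infants and 9.9, 18.6 and 9.6 RPKM in the young adults. Every infant library was above every young adult library, but the lowest infant value (replicate 2) and the highest young adult value (replicate 2) were close. It fell in young adult EC by 1.15 on the log2 scale (SE 0.31, 95% interval -1.87 to -0.43, limma adjusted p = 0.0329), from 29.4 ± 11.5 to 12.7 ± 5.11 RPKM (SD, n = 3 each), a ratio of 0.432. The call was kept in 2 of the 6 fits that left out 1 library and was lost without infant replicate 1, infant replicate 3, young adult replicate 1 or young adult replicate 3, with differences between -1.44 and -0.86 over all 6. Hspa1b had 22.7, 10.3 and 13.9 RPKM in the infants and 5.6, 11.7 and 5.2 RPKM in the young adults. Here young adult replicate 2 exceeded infant replicate 2, so the groups overlapped, and the difference of -0.98 (SE 0.34) did not pass the test at a limma adjusted p of 0.0683. Since the copies are near-identical, a read can be assigned to either, and each value alone is uncertain. The ratio of Hspa1a to Hspa1b was 1.59 to 2.01 in the 6 libraries. Their sum, which does not depend on that division where both copies were counted, was 65.1, 31 and 39 RPKM in the infants and 15.5, 30.3 and 14.8 RPKM in the young adults. It differed by -1.12 (95% interval -1.89 to -0.36, limma adjusted p = 0.0423 in a fit added after the data were seen). The groups did not overlap, though infant replicate 2 and young adult replicate 2 nearly met.

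Hspa1l, a relative with its main site of expression in the testis, starts 546 bases from Hspa1a. It was near the rounding step of the table, with 1.6, 0.9 and 1.2 RPKM in the infants and 0.5, 0.7 and 0.6 RPKM in the young adults, and its difference of -0.47 had a limma adjusted p of 0.0643. Set against the constitutive Hspa8, the inducible pair amounted to 12.4, 4.95 and 6.26% of the Hspa8 level in infant and to 2.60, 5.56 and 2.36% in young adult libraries. Within the young adult group the pair was highest in replicate 2, which had the lowest summed dissociation response of all 6 libraries (688 RPKM). Within the infant group the pair was highest in replicate 1, which had the highest (1729 RPKM). The part of the digestion in the level of Hspa1a was not tested.

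Hspa1a and Hspa1b belong to a set of 10 cytosolic genes of the heat shock response, called the heat-inducible set here. Of its other genes, Hspb1 was called higher and Dnajb4 had an adjusted p under 0.05 (both are described further on), and the rest did not pass the test. Dnajb1 (HSP40, the main J-domain partner of inducible HSP70) had 26.7, 24.5 and 25.7 RPKM in the infants and 21.6, 18.3 and 23.1 RPKM in the young adults. The groups were apart, but the difference of -0.28 had a limma adjusted p of 0.0942. Hsp90aa1, the inducible HSP90, had 28.7, 25.6 and 36.8 against 25.4, 22.2 and 27.5 RPKM, a difference of -0.26 (95% interval -0.60 to 0.09). Hsph1 (HSP105, an exchange factor of the HSP110 family) pointed the other way, with 4.3, 2.6 and 4 RPKM in the infants and 5.1, 4.2 and 5.7 RPKM in the young adults and a difference of 0.39 (95% interval -0.01 to 0.78). Dnaja1, a farnesylated cytosolic J-domain protein, stood at 45.4, 43.2 and 46.3 against 50.3, 40.3 and 47.6 RPKM, with overlapping groups and a difference of 0.03 (95% interval -0.23 to 0.28). Neither Hspa8 (-0.00, 95% interval -0.37 to 0.36) nor Hsp90ab1 (0.20, 95% interval -0.18 to 0.58) passed the test, and their intervals leave room for changes below the fold threshold. The set of 10 genes holds the constitutive Hspa8 and Hsp90ab1 beside inducible genes. In it 1 gene was called higher and 1 lower (20% called, beside 11.4% of all genes). An adjusted p under 0.05 was reached by 3 (30%, beside 25.5% of all genes). The median difference of the set was -0.13, that of all genes -0.07, and 6 of its 10 genes had a negative difference (5 with median-of-ratios scaling, 8 with quantile normalization).

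Promoters of the same genes were searched for the heat shock element. RefSeq windows from 250 bases before to 50 after the start were at hand for 52 of the 65 genes. The heat shock element core was found in 6 of 7 heat-inducible genes with a window (85.7%), Dnajb1 being the one without, in 8 of the other 45 genes (17.8%) and in 4587 of 27025 genes of the annotation (17.0%). The set was chosen as genes of the heat shock response, so its high share is in part given by that choice. Hspa1a and Hspa1b, near-identical copies, count separately, and Hspa8, Hsp90ab1 and Hsp90aa1 of the set had no window. In Hspa1a and Hspa1b the match begins at base -104 from the start site. Further matches, in capitals below, are shown for genes of the set that were not called and for the mitochondrial Hspe1, since the same core stands before genes whose levels differed and genes whose levels did not pass the test. The strand is plus for Hspe1 and Dnaja1 and minus for Hsph1 and Dnajb4, and the Hsph1 and Dnajb4 windows belong to starts inside the annotated genes.
Hsph1, chr5:149636351-149636380: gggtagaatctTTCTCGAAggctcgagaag
Dnaja1, chr4:40722333-40722362: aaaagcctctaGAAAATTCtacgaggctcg
Dnajb4, chr3:152193846-152193870: ttcgttcgctgTTCTAGAAagtaca
Hspe1, chr1:55088053-55088082: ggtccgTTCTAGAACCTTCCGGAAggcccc
In Hspe1 3 matches overlap in 1 run. The same run lies before a start of Hspd1 on the opposite strand, and that start is inside the annotated Hspd1 gene. A match describes letters and not binding.

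All small heat shock proteins in the table differed between the ages, in both directions. The 4 genes (Hspb1, Hspb2, Hspb6 and Hspb8) each had an adjusted p under 0.05 and groups without overlap, which held for 25.5% and 43.4% of all genes. Hspb1 and Hspb8 were higher and Hspb2 and Hspb6 lower in young adult EC. Hspb1 (HSP27, in the mouse also HSP25), which binds unfolded clients and actin, lies on chromosome 5 at 135887919 to 135889563. The 250 bases before its start on the plus strand are shown because it was the one gene called higher, and capitals mark heat shock element cores that begin at bases -117 and -97.
Hspb1, chr5:135887669-135887918: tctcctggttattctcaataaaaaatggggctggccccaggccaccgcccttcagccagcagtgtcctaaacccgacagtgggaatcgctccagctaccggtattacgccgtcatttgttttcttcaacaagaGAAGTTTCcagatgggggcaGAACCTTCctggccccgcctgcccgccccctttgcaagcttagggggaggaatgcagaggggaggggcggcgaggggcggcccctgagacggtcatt

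Hspb1 had 4.6, 6 and 3.6 RPKM in the infants and 9.5, 15.9 and 21.8 RPKM in the young adults. The lowest young adult library was above the highest infant library. It rose by 1.50 on the log2 scale (SE 0.28, 95% interval 0.85 to 2.14, limma adjusted p = 0.0102), from 4.73 ± 1.21 to 15.7 ± 6.15 RPKM (SD, n = 3 each), a ratio of 3.32. The call was lost only without young adult replicate 2 among the 6 fits that left out 1 library, and the difference lay between 1.24 and 1.80. Young adult libraries took the same order in Hspb1 as in the sum of 8 markers of ciliated and secretory epithelium, which was 366, 1971 and 3456 RPKM there and 2845, 7024 and 3936 RPKM in infant libraries, so that the groups overlapped in this sum. Of the 8 markers, 3 were called lower and none higher. Sums of alveolar epithelial (1594, 3094 and 5298 RPKM), leukocyte (144, 311 and 559 RPKM) and endothelial markers (5797, 6098 and 6350 RPKM) took this order too. Those of fibroblast, mural, erythroid, platelet and lymphatic markers did not. In infant libraries the endothelial sum (4081, 5466 and 3747 RPKM) again took the order of Hspb1. Sums of ciliated and secretory, alveolar epithelial (4064, 5133 and 4951 RPKM) and leukocyte markers (329, 526 and 480 RPKM) did not. The part of any of these cells in the rise of Hspb1 was not tested.

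Hspb8 (HSP22, a partner of BAG3 in the removal of damaged proteins) had 3, 3.5 and 3.6 RPKM in the infants and 5.1, 6.9 and 5.6 RPKM in the young adults. Its difference of 0.65 (SE 0.13, limma adjusted p = 0.0121) stayed under the fold threshold on the log2(RPKM + 1) scale, with a ratio of mean RPKM of 1.74, and had an adjusted p under 0.05 in all 6 fits that left out 1 library. Bag3 itself differed by 0.07.

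Hspb2 (MKBP, known from heart and skeletal muscle) had 7.1, 1.2 and 6.6 RPKM in the infants and 0.4, 0.6 and 0.5 RPKM in the young adults. Infant replicate 2 was far below the other infant libraries and still above all young adult ones. Hspb2 fell by 1.78 on the log2 scale (SE 0.46, limma adjusted p = 0.0275), to a ratio of 0.101. Its call was kept in 1 of the 6 fits that left out 1 library, the one without infant replicate 2 (difference -2.39). The gene lies on chromosome 9 at 50751072 to 50752354, wholly inside the span annotated for Cryab, and the kit does not mark strand, so reads of both genes may be mixed. Cryab (alphaB-crystallin, a small heat shock protein by sequence whose symbol lies outside the rule) fell as well, with 26.5, 19 and 40.5 RPKM in the infants and 10.9, 15.1 and 12.9 RPKM in the young adults (difference -1.03, limma adjusted p = 0.0233). Markers of mural cells moved with both genes: 12 of 14 were called lower, none of them was at 0 in an infant library, and their sum was 333, 195 and 378 RPKM in the infants and 109, 102 and 97.2 RPKM in the young adults, lowest among infant libraries in replicate 2, as for Hspb2. Most of the young adult sum was Mcam (91.2, 75.4 and 72.8 RPKM), which was not called (difference 0.31). Pdgfrb, a defining pericyte marker, stood at 69.4, 17.4 and 57.1 against 1.2, 2.2 and 1.9 RPKM. Fibroblast markers moved in the same way, with 12 of 13 called lower and a sum of 1530, 371 and 1088 RPKM in infant libraries against 13.4 to 27.7 RPKM. So did the sums of erythroid markers (30428, 9657 and 79865 against 823 to 1351 RPKM) and cell cycle genes (116, 72 and 125 against 63.2 to 71.3 RPKM). The dissociation response sum was lowest among infants in replicate 2 too. Endothelial, lymphatic, platelet, leukocyte and epithelial sums were instead highest there among infants. The part of any of these cells or responses in the fall of Hspb2 was not tested.

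Hspb6 (HSP20, abundant in smooth muscle) had 2.2, 3 and 2.3 RPKM in the infants and 1.3, 1 and 1.3 RPKM in the young adults. The difference was -0.67 (SE 0.14, limma adjusted p = 0.0140), under the fold threshold on this scale, with a ratio of 0.480, and the adjusted p stayed under 0.05 in 5 of the 6 fits that left out 1 library. With quantile normalization the difference shrank to -0.38 and did not pass the test (limma adjusted p = 0.117). Infant replicate 2, lowest in the mural sum, was highest in Hspb6.

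**Figure D3:**
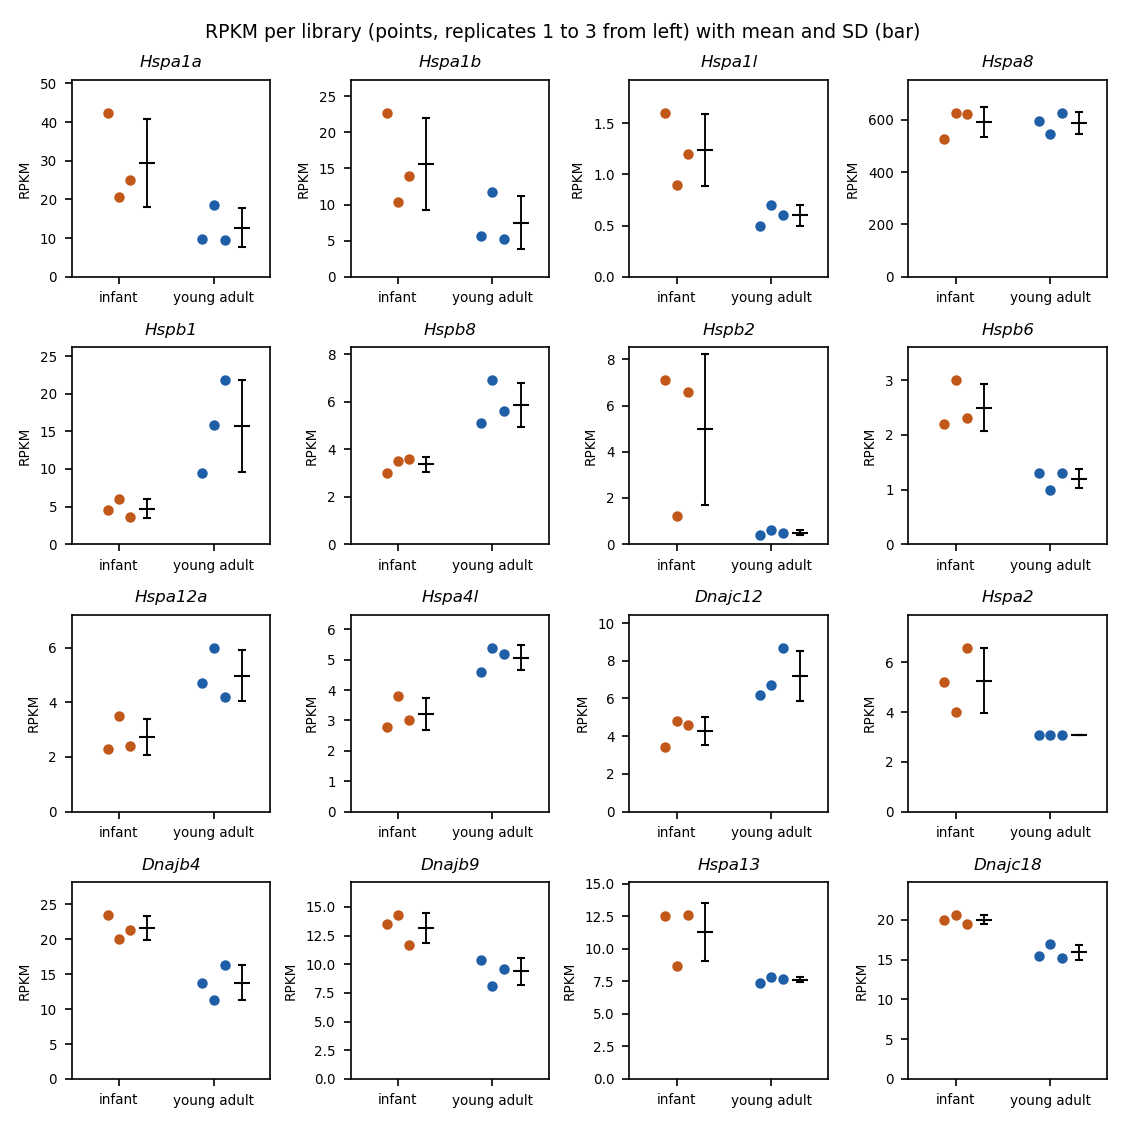
RPKM per library for 16 genes, with points for replicates 1 to 3 from left to right in each age group and a bar for the mean and SD (n = 3). All young adult points lie below the infant points in Hspa1a and above them in Hspb1, the groups overlap in Hspa1b and Hspa8, and infant replicate 2 lies apart from replicates 1 and 3 in Hspb2 (1.2 against 7.1 and 6.6 RPKM).

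Of the remaining HSP70 genes, 3 had an adjusted p under 0.05 without reaching the fold threshold on the log2(RPKM + 1) scale. With Hspa1a this made 36.4% of the 11 HSP70 genes, beside 25.5% of all genes. Hspa12a, an atypical HSP70 with a divergent ATPase domain, was higher in young adult EC, with 4.7, 6 and 4.2 against 2.3, 3.5 and 2.4 RPKM in infant libraries (difference 0.68, SE 0.16, limma adjusted p = 0.0231). The ratio of mean RPKM of Hspa12a was 1.82, which is over 1.75-fold. Its relative Hspa12b, known for its preference for endothelium, was the more abundant and overlapped between the ages, with 34.7, 30.9 and 23.6 RPKM in the infants and 25.1, 37.4 and 32.6 RPKM in the young adults (difference 0.09, 95% interval -0.34 to 0.51). Hspa2, best known from spermatogenesis, had 5.2, 4 and 6.6 RPKM in the infants and 3.1 RPKM in every young adult (difference -0.59, limma adjusted p = 0.0290). Hspa13, a short HSP70 of the ER, had 12.5, 8.7 and 12.6 RPKM in the infants and 7.4, 7.8 and 7.7 RPKM in the young adults (difference -0.49, limma adjusted p = 0.0410). The groups did not overlap in Hspa12a, Hspa2 and Hspa13. Hspa14, which acts at the ribosome, overlapped at 25.9, 30.4 and 27.5 against 30.6, 29.5 and 28.4 RPKM.

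The HSP110 genes are HSP70 relatives that act as exchange factors. Hspa4l had 2.8, 3.8 and 3 RPKM in the infants and 4.6, 5.4 and 5.2 RPKM in the young adults. The groups did not overlap, and the difference of 0.54 (SE 0.12, limma adjusted p = 0.0196) lay under the fold threshold. Hspa4 overlapped (difference 0.02, 95% interval -0.22 to 0.25). None of the 3 HSP90 genes passed the test, with differences from -0.26 to 0.20. The remaining genes named for other features (Hspb11, a component of intraflagellar transport, and Hspbap1 and Hspbp1, which bind heat shock proteins) did not pass either, with differences from -0.22 to 0.09.

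J-domain proteins gave 4 genes with an adjusted p under 0.05 and none called among 39, beside 25.5% and 11.4% of all genes. All 4 Dnaja genes, the closest kin of bacterial DnaJ, had overlapping groups, with differences from -0.11 to 0.12. Of the 11 Dnajb genes 2 had an adjusted p under 0.05, both lower in young adult EC. Dnajb4 (HLJ1, a cytosolic partner of HSP70) had 23.5, 20.1 and 21.4 RPKM in the infants and 13.8, 11.3 and 16.3 RPKM in the young adults, with no overlap, a difference of -0.63 (SE 0.14, limma adjusted p = 0.0172) and a ratio of 0.637. Dnajb9 (ERdj4, which brings BiP to the stress sensor IRE1) had 13.5, 14.3 and 11.7 against 10.4, 8.1 and 9.6 RPKM, with no overlap and a difference of -0.45 (SE 0.12, limma adjusted p = 0.0314). The other Dnajb genes lay between -0.28 and 0.34.

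Of the 24 Dnajc genes, 12 were above and 12 below 0, and 2 had an adjusted p under 0.05 (8.33%, beside 25.5% of all genes). Dnajc12, which helps aromatic amino acid hydroxylases to fold, was higher in young adult EC, with 6.2, 6.7 and 8.7 against 3.4, 4.8 and 4.6 RPKM and no overlap (difference 0.64, SE 0.16, limma adjusted p = 0.0237). Dnajc18 was lower, with 15.5, 17 and 15.2 against 19.9, 20.6 and 19.5 RPKM, no overlap and a small difference of -0.31 (SE 0.09, limma adjusted p = 0.0370). Its adjusted p was 0.0535 to 0.109 in the fits that left out 1 library, 0.0891 with median-of-ratios scaling and 0.0709 with the replicate block. The most abundant were Dnajc8, which is associated with splicing, with 110.9, 132.3 and 126.2 RPKM in the infants and 133.6, 152.7 and 142.4 RPKM in the young adults, and Dnajc7, a cochaperone of HSP70 and HSP90, with 65.3, 73.1 and 66.6 against 74.2, 75.6 and 70.8 RPKM. Dnajc8 did not overlap, but its difference of 0.21 did not pass the test (limma adjusted p = 0.214), and Dnajc7 overlapped. Dnajc9, a histone chaperone that is known to follow DNA replication, differed by 0.08 (95% interval -0.23 to 0.40). Of 18 cell cycle genes 11 were called lower in young adult EC. Not called were Ccna2, Tyms and the replication genes Mcm2, Mcm3, Mcm5, Mcm6 and Pcna. Of these, Mcm3 was higher (difference 0.34, limma adjusted p = 0.0369). Dnajc19 and the pseudogene Dnajc19-ps can share reads and are uncertain, and both overlapped.

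No chaperone of the ER was called. Of 11 genes in the table, 10 had a negative difference (7 with median-of-ratios scaling, 9 with quantile normalization, 11 with globin genes left out of the total), 2 of them with an adjusted p under 0.05 (Dnajb9 and Hspa13, described above), and the differences spanned -0.49 to 0.03, with a median of -0.23 beside -0.07 for all genes. Of all 12458 genes tested, 7295 had a negative difference and 25.5% an adjusted p under 0.05. Hspa5 differed by -0.26 (95% interval -0.58 to 0.07) and overlapped between the groups, and Hsp90b1 by -0.02 (95% interval -0.36 to 0.31). The cofactors Dnajc3, Dnajc10 and Dnajb11, which feed clients to BiP or reduce their disulfides, lay at -0.03, -0.23 and -0.02. Promoter stretches of Hspa5, Hsp90b1 and Dnajc3 are shown for the ER stress element, searched as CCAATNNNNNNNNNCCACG on both strands, which the factor ATF6 binds together with NF-Y. It was found in 3 of 10 ER genes with a window and in 37 of 27025 genes of the annotation (0.137%), and Hsp90b1 held 2 matches, of which the farther one is shown. The strand is plus for Hspa5 and Dnajc3 and minus for Hsp90b1.
Hspa5, chr2:34772020-34772049: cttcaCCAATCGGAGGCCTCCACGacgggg
Hsp90b1, chr10:86705632-86705661: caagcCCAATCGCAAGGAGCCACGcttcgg
Dnajc3, chr14:118937822-118937851: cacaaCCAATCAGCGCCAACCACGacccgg
None of the genes that carried the ER stress element passed the test, and all of them overlapped between the ages.

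**Figure D4:**
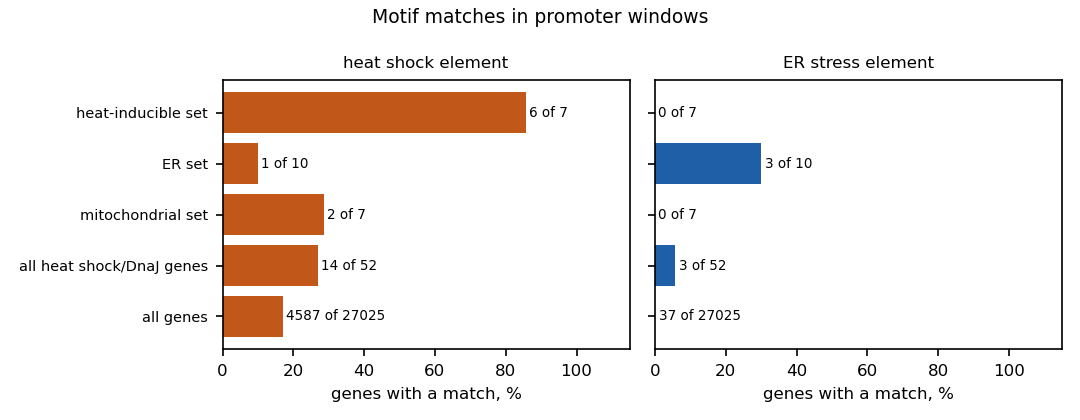
Share of genes, in %, whose RefSeq promoter window of 250 bases before and 50 after the start holds a heat shock element core (left) or an ER stress element (right), with the counts beside the bars. The heat-inducible set stands at 6 of 7 for the heat shock element and the ER set at 3 of 10 for the ER stress element, above all genes at 4587 and 37 of 27025.

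No mitochondrial chaperone passed the test. None of 10 genes had an adjusted p under 0.05 in limma, 2 had an unadjusted p under 0.05, and all 10 intervals lay inside the fold threshold. Of all 12458 genes tested, 25.5% had an adjusted p and 5032 an unadjusted p under 0.05. Hspd1 (HSP60) had 27, 25.6 and 31.2 RPKM in the infants and 30.2, 30.3 and 32.1 RPKM in the young adults, a difference of 0.14 (95% interval -0.09 to 0.38). Its lid Hspe1 (HSP10) had 12, 11 and 18.4 against 13.4, 13.1 and 13.9 RPKM, a difference of -0.00 (95% interval -0.41 to 0.41). Both genes overlap by 96 bases at their starts, so a small part of their reads cannot be assigned without strand. Hspa9 (mortalin, the HSP70 of the import motor) had 22.5, 20.2 and 23.6 against 22.3, 24.4 and 24.4 RPKM, a difference of 0.10.

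Genes that work with the chaperones were examined as lists. None of 23 HSP90 cochaperones, 10 nucleotide exchange factors, 14 subunits of the TRiC chaperonin and of prefoldin, 12 mitochondrial proteases and import genes and 3 heat shock factors and regulators was called. The most abundant HSP90 cochaperone was Ptges3 (p23), with 48.5, 48.7 and 54 RPKM in the infants and 67.7, 54.8 and 64.3 RPKM in the young adults, a difference of 0.30 that did not pass the test (limma adjusted p = 0.0931). Genes of these lists with an adjusted p under 0.05, named after their values were seen, included Bag5 (0.56), Sil1 (0.35), Clpp (0.50) and Hsf1 (0.37), each higher in young adult EC. Hsf1, the transcription factor of the heat shock response, had 15.2, 16.6 and 14.4 RPKM in the infants and 17.8, 22.1 and 20.6 RPKM in the young adults (limma adjusted p = 0.0451). Its groups did not overlap. Hsf2 differed by 0.00. The median differences of these lists lay between 0.00 and 0.06.

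Of 30 further ER chaperones and genes of the unfolded protein response 1 was called, Serp1, which protects new membrane proteins at the ER translocon, with 18.6, 16.7 and 16.4 RPKM in the infants and 7.6, 8.4 and 11.7 RPKM in the young adults (difference -0.85, limma adjusted p = 0.00885). The others with an adjusted p under 0.05 went both ways, with Ppp1r15a lower (-0.64) and Derl2 (0.50) and Asns (0.79) higher, and the median was -0.03. Of 6 crystallins and other relatives of the chaperones, 2 were called lower, Cryab and Hspg2, the latter a basement membrane protein with no chaperone role (2.2, 0.8 and 1.7 against 0.2, 0.4 and 0.3 RPKM). Beside the 11.4% of all genes, 0 to 3.33% were called in the partner lists other than that of the crystallins (33.3%). The dissociation response (7 of 15 called, 46.7%) and the cell cycle list (11 of 18, 61.1%) had larger shares, and every called gene in them was lower in young adult EC.

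**Figure D5:**
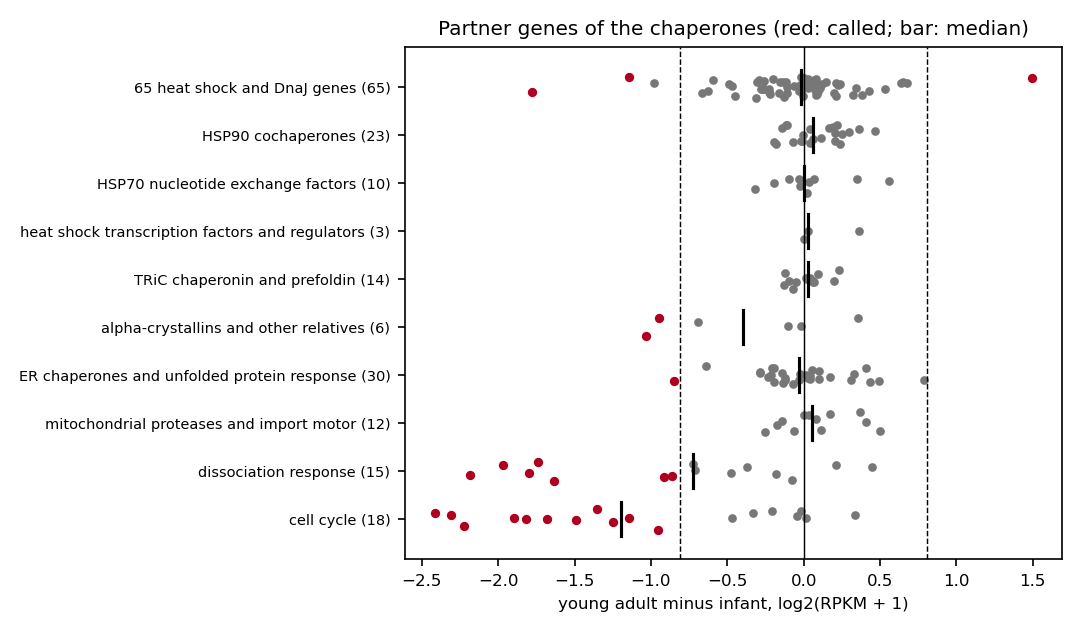
Difference between young adult and infant EC on the log2(RPKM + 1) scale, 1 point per gene, for the 65 chaperone genes and 9 lists of related genes, with the number of tested genes in parentheses, called genes in red, a black bar at each median and dashed lines at the fold threshold. The chaperone and cochaperone lists centre near 0, and the dissociation response and cell cycle lists lie to the left, with medians of -0.72 and -1.19.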

How the data were processed

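RNA-seq of sorted lung EC was measured in 6 libraries, grouped by the age in their labels. The RNA was extracted with PicoPure, amplified with the SMARTer Ultra Low kit and sequenced as paired ends, and the authors aligned reads to mm10 with STAR and used the RefSeq annotation. The deposited values are RPKM, 1 row per transcript (17241 rows), rounded by the authors to 1 decimal, with 0 further columns of values. The STAR version and the RPKM program are not given in the sources used here. Depth is unknown, since whole reads could not be recovered.

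Symbols that had become dates were restored in 24 rows, and the row with the highest mean was kept per gene. The fold threshold and the filter (at least 1 library with an RPKM of 1 or more) follow the study. Its count test needs reads and was replaced by limma 3.58.1 (R 4.3.3) on log2(RPKM + 1) with an intensity trend and Benjamini-Hochberg adjustment, the age group being the only term. Intervals are limma's at 95%. On simulated data for 12458 genes, 92% of 200 genes changed by 1.5 on the log2 scale were called, with 0 false calls. Smaller changes were not simulated, so this share does not apply to them. The genes, roles and lists were chosen with earlier results of these data known. Values per library are given for called genes, the 10 most abundant, the heat-inducible set and up to 10 further genes with an adjusted p under 0.05, and a few genes beyond this rule are named for context. Positions and promoter windows are from RefSeq, GRCm38.p6, with windows for 52 of the 65 genes.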

Additional observations from a re-analysis of the deposited data

How the results depend on the processing

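Of the 13 genes with an adjusted p under 0.05, 0 changed sign under the 14 other settings and the 6 fits that left out 1 library. Of the other 52 genes, 27 did in at least 1 of these, a contrast that follows in part from picking the 13 by their p. The sign could not change under the other filters, no intensity trend, robust eBayes, the replicate block, treat or no fold threshold, which leave the difference as it is. With no fold threshold a call cannot be lost either. Hspb1 remained called in 13 of 14 settings (lost in limma treat against the fold threshold), Hspb2 in 12 (lost with pseudocount 5 and treat) and Hspa1a in 11 (lost with robust eBayes, the replicate block and treat). The number of chaperone genes called higher, 1, became 2 with pseudocount 0.1 (Hspa12a added), 3 with quantile normalization (Hspa12a and Hspb8 added), 0 with treat and 5 with no fold threshold. The number called lower, 2, became 3 with pseudocount 0.1 (Hspb6 added) and 3 with array weights (Hspa1b added). It became 1 with pseudocount 5, 1 with robust eBayes, 0 with treat and 8 with no fold threshold. At an unadjusted p under 0.05, treat kept 2 genes. Leaving out each library gave 0 to 2 genes higher and 0 to 3 lower.

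Over all genes the calls (415 higher, 1009 lower) became 240 higher and 338 lower with pseudocount 5, 52 and 124 with treat, 1154 and 2022 with no fold threshold, and 611 lower with quantile normalization, which raised the share of calls that were higher from 29.1% to 46.5% and moved the median of all genes from -0.07 to 0.04. Leaving out each library gave 312 to 566 higher and 514 to 1308 lower. The median difference of the 65 genes moved from -0.02 to 0.045 with median-of-ratios scaling and to -0.12 with globin genes left out of the total, and lay between -0.06 and 0.00 without single libraries, so its sign was not determined. The causes were not tested.

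The replicate numbers did not pair the samples: the deviations of equally numbered libraries correlated at 0.03, -0.11 and -0.02. With the replicate block 1 chaperone gene was called higher and 1 lower (Hspb1 and Hspb2), 9 had an adjusted p under 0.05, and over all genes 412 were called higher and 959 lower. Depth is unknown, and values under about 1 RPKM carry the rounding of the table, which limits Hspa1l, Dnajb7, Dnajc28 and the young adult values of Hspb2.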
